A study of Mus musculus with 8 samples.

Results

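The retinoic acid genes described here are 10 genes of retinoic acid synthesis, transport and reception: the retinaldehyde dehydrogenase genes Aldh1a1, Aldh1a2 and Aldh1a3, the retinaldehyde reductase gene Dhrs3, the receptor genes Rara, Rarb and Rarg, the binding protein genes Crabp1 and Crabp2, and the vitamin A transporter gene Stra6. They were taken by gene symbol, and 19 of the 45281 probes on each array belonged to these 10 of 19057 named genes. RNA of E12.5 mouse hearts and of epicardial cultures had been hybridized to 8 Illumina bead arrays, 1 array per group, so no group had a replicate. All samples were of a mixed C57 background. The heart groups were PDGFR (a and b) epicardial knockout hearts and wild type control hearts, each a pool of 3 hearts without the conotruncal region. The culture groups were a knockout culture with no treatment named, a wild type control culture labelled as given vehicle, wild type cultures given 20 ng/ml PDGFBB for 12 h or 24 h, a wild type culture given 20 ng/ml PDGFBB, 10 ng/ml hTGFb1 and 25 ng/ml bFGF over 2 days, called the 3-factor culture here, and a wild type culture that received vehicle over the same time, called the vehicle culture. Every culture array held RNA from at least 3 cultures, grown out of E12.5 hearts for 3 days and kept for 2 days after heart removal. No Cre driver is named in the labels. For the knockout and control cultures the source field gives the heart as tissue, while their titles say culture, and the titles were followed.

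Retinoic acid is made from vitamin A in cells that take up retinol, oxidize it to retinaldehyde and then to the acid, the last step being that of the Aldh1a enzymes. The acid enters the nucleus with the help of binding proteins and acts through RAR and RXR receptor pairs bound to direct repeats in DNA. In the embryonic heart the epicardium is a known source of the acid, made mainly by ALDH1A2, and signals that depend on it bear on growth of the muscle wall and on the coronary vessels.

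Rarb is the classical direct target of its own receptors, and its promoter is shown because Rarb levels separated hearts from cultures on these arrays. The sequence is RefSeq's for GRCm38.p6, chr14:16575427-16575726, minus strand, from 250 bases before to 50 bases after a start within the gene. The whole gene spans chr14:16430839-17082331, so this start is not the outermost one. The capitals mark a direct repeat of receptor half-sites 5 bases apart (DR5), which begins 53 bases before that start.
Rarb promoter: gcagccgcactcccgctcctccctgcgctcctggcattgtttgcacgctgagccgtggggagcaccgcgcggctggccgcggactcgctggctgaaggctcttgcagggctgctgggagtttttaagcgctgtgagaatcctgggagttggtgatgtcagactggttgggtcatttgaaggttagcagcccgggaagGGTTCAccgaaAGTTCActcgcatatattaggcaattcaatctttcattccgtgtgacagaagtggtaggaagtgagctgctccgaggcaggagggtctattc
The half-sites searched were AGGTCA and AGTTCA, with GGGTCA besides GGTTCA, on both strands, with spacers of 5, 2 or 1 bases. A DR5 was found in 32 of 32851 promoters of the same length (0.0974%), a DR2 in 0.268% and a DR1 in 0.222%. RefSeq's table held 18 promoters for 8 of the 10 genes, and the Rarb promoter was the single one with any of these repeats. Cyp26a1, the gene of the main enzyme that breaks the acid down, also had a DR5, which is set beside that of Rarb because the 2 elements share a half-site. The Rarb element lies at chr14:16575513-16575529 on the gene's own strand, and the Cyp26a1 element at chr19:37697776-37697792 on the strand opposite to the gene.
Rarb: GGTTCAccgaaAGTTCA
Cyp26a1: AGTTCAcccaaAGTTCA
A match describes these letters and does not show binding.

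Levels are log2 intensities after background correction and quantile normalization, and a probe was taken as detected where its detection p was under 0.01. A gene was measured in a comparison where it was detected on at least 1 of the 2 arrays, and "rose" and "fell" are kept for a log2 difference of 1 or more in size with detection on the array that was higher. This is a rule of size without a test. Between 14557 and 16661 probes were detected per array, and the arrays fall into 2 sets of 4, read from the authors' processed values. Within each set these values share their minimum and maximum, and their medians are close but not equal. Set 1 held both heart arrays, the 3-factor culture and the vehicle culture, and set 2 the knockout, control and PDGFBB cultures. Comparisons were made within a set where possible. Pdgfra, a target of the knockout, had a level of 5.80 in knockout hearts and 7.43 in control hearts, and of 10.49 in the knockout culture, 11.61 in the control culture and 10.21 in the vehicle culture, so the knockout culture was not below both untreated cultures. Pdgfrb, the other target, had 5.11 in knockout hearts, without detection, and 5.62 in control hearts, and 5.85, 6.12 and 6.18 in the knockout, control and vehicle cultures. Whether the probes lie in the deleted parts of these genes is not known here. The mesothelial markers Upk3b and Upk1b and the epicardial factor Tcf21 were detected in all cultures, while Tbx18 was detected in the PDGFBB 24 h culture alone.

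Of the 10 genes, Aldh1a2 was detected on all 8 arrays. Rarb was detected on 6 arrays, both heart arrays among them, and Rarg on the 6 culture arrays. Aldh1a1, Crabp1 and Crabp2 were detected on 5 arrays each, Dhrs3 on 2 and Aldh1a3 on 1, none of them in hearts. Rara and Stra6 were not detected on any array. For Rara, detection p was lowest in the PDGFBB 24 h culture (0.015), and it was 0.0385 and 0.0278 in knockout and control hearts and 0.0374 in the knockout culture. For both Stra6 probes it was 0.235 or higher throughout.

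**Figure D1:**
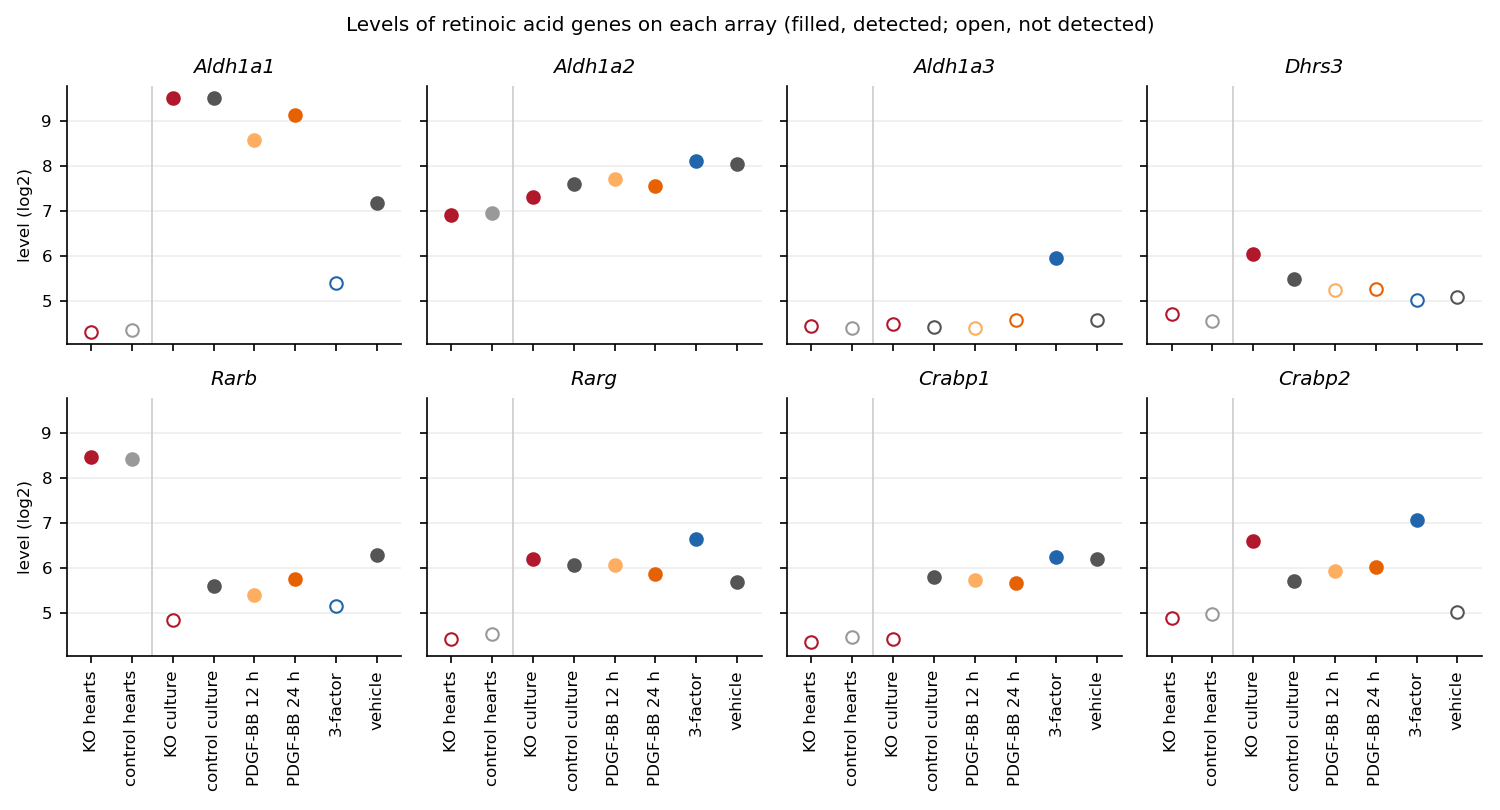
Log2 level of 8 of the 10 genes on each of the 8 arrays, 1 point per array, filled where detected and open where not. Aldh1a1 spans 4.31 to 9.52, Rarb is highest in both heart pools (8.46 and 8.42), and Crabp1 is undetected in the knockout culture at 4.42 while the other cultures lie between 5.67 and 6.23.

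Aldh1a1, which encodes a retinaldehyde dehydrogenase first known from adult liver and eye, varied more over the arrays than any other of the 10 genes. Its level was 9.52 in the knockout culture and 9.52 in the control culture, 8.58 with PDGFBB for 12 h and 9.13 for 24 h. It was 5.396 in the 3-factor culture, where it was not detected (detection p 0.0203), and 7.18 in the vehicle culture. In knockout and control hearts it was 4.31 and 4.34, both without detection. Cultures of set 2 were thus high, the vehicle culture was intermediate and the 3-factor culture and the hearts were low.

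Aldh1a2, whose enzyme makes most retinoic acid of the early embryo, was detected everywhere and varied little between cultures by the probe used. Its level was 6.90 in knockout hearts and 6.95 in control hearts, 7.32 in the knockout culture and 7.603 in the control culture. It was 7.71 and 7.56 with PDGFBB for 12 h and 24 h, 8.11 in the 3-factor culture and 8.04 in the vehicle culture. A second probe, also detected on all arrays, ran from 5.72 in both heart pools to 7.29 in the vehicle culture. The 2 probes agreed on lower levels in hearts than in any culture.

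Aldh1a3, the remaining enzyme gene, was detected in the 3-factor culture alone, at 5.96, with 4.39 to 4.58 on the other 7 arrays. The detecting probe was 1 of 3, and the others were not detected on any array. In the 3-factor culture those had 4.388 and 4.385, against 4.382 and 4.563 in the vehicle culture. Dhrs3 encodes an enzyme that turns retinaldehyde back to retinol and so limits the supply of the acid. Its level was 6.03 in the knockout culture and 5.48 in the control culture, the arrays where it was detected, and between 4.56 and 5.26 on the others. Its second probe was not detected.

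Crabp1 and Crabp2 encode cytosolic proteins that bind the acid, CRABP2 being known to hand it to the receptors. Crabp1 had a level of 4.42 in the knockout culture, where it was not detected, and 5.78 in the control culture. It had 5.72 and 5.67 with PDGFBB for 12 h and 24 h, 6.23 in the 3-factor culture and 6.20 in the vehicle culture, and 4.34 and 4.45 in knockout and control hearts without detection. All 5 wild type cultures lay above the knockout culture. Crabp2 had a level of 6.60 in the knockout culture and 5.70 in the control culture, 5.92 and 6.02 with PDGFBB for 12 h and 24 h, 7.07 in the 3-factor culture and 5.02, without detection, in the vehicle culture. In hearts it was 4.89 and 4.97, knockout and control, without detection. The 3-factor and knockout cultures were the highest and the vehicle culture the lowest of the cultures.

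Among the receptors, Rarb had a level of 8.46 in knockout hearts and 8.42 in control hearts. In cultures it was 4.83 in the knockout culture, without detection, and 5.58 in the control culture, 5.39 and 5.74 with PDGFBB for 12 h and 24 h, 5.15 in the 3-factor culture, without detection, and 6.28 in the vehicle culture. A second probe was at 7.66 and 7.51 in knockout and control hearts and at 4.56 in the knockout culture, 5.53 in the control culture and 5.13 in the vehicle culture. The probes differed over the untreated cultures: the vehicle culture minus the control culture was 0.69 by one and -0.40 by the other, which was not detected in the vehicle culture. Rarg had a level of 6.19 in the knockout culture and 6.07 in the control culture, 6.05 and 5.86 with PDGFBB for 12 h and 24 h, 6.64 in the 3-factor culture and 5.69 in the vehicle culture. It was 4.41 and 4.54 in knockout and control hearts without detection, so Rarb and Rarg were ordered in opposite ways between hearts and cultures.

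**Figure D2:**
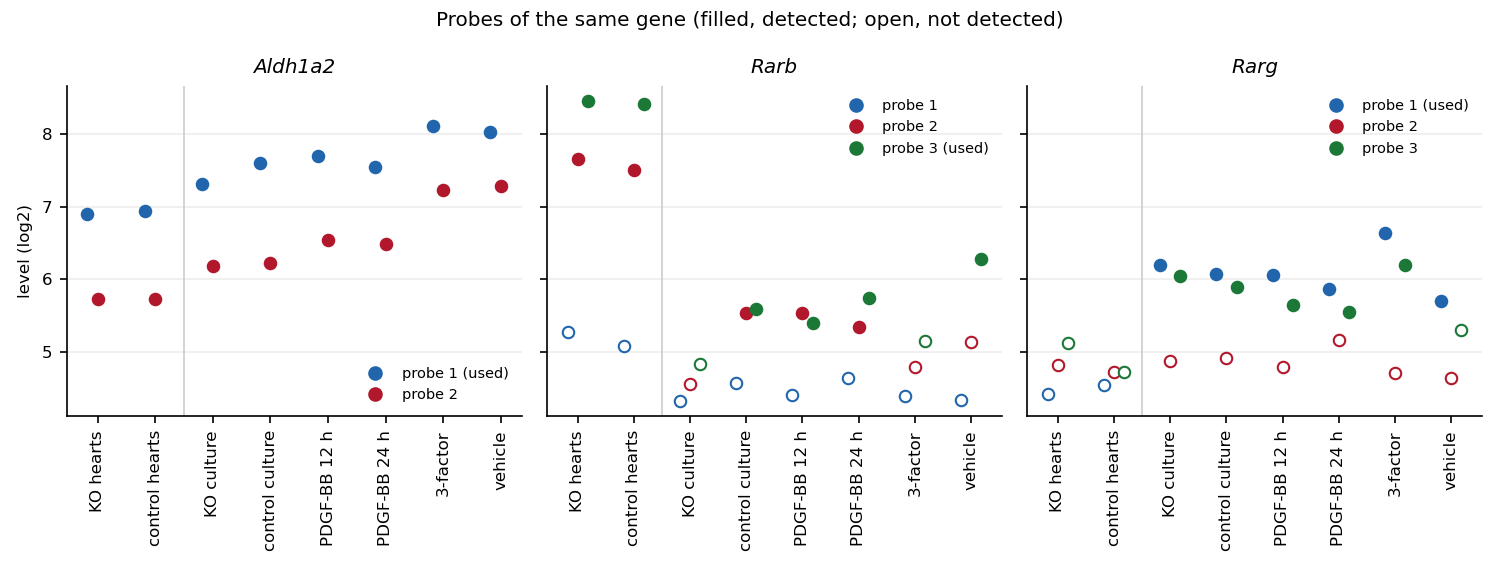
Log2 level by each probe of Aldh1a2, Rarb and Rarg on each array, 1 point per probe and array, filled where detected. Both Aldh1a2 probes are lowest in hearts, 2 Rarb probes are highest in hearts, and 2 Rarg probes are detected in cultures, while the remaining probe of Rarb and of Rarg is detected nowhere.

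Knockout and control hearts were compared to ask what loss of the receptors in the epicardium does to the heart. No measured gene of retinoic acid synthesis and response passed the rule of size between them. Of the 10 genes, Aldh1a2 and Rarb were measured, and neither passed the rule, as 0.662% of 8915 measured genes did. The others were detected in neither pool. Aldh1a2 differed by -0.05 and Rarb by 0.04, and by -0.01 and 0.15 with their second probes. Since the epicardium is a thin layer of the heart, fewer cells of a type and less RNA per cell cannot be told apart in these pools, nor in the cultures. Of other retinoid genes, chosen as lists of 66 genes of which 59 had a named probe, 24 were measured and 0 passed the rule, with a median difference of 0.01 beside 0.00 for all measured genes. By list the median was 0.055 over 10 measured genes of supply and breakdown, 0.332 over only 4 of receptors and cofactors and -0.177 over 10 targets.

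In the knockout culture Crabp1 fell, being detected in the control culture and not in the knockout culture, with a difference of -1.36 and a level at least 1.44-fold lower. It was 1 of 7 measured members, where 4.17% of all 9762 measured genes were called. Against the vehicle culture of the other set the difference was -1.78 and the level at least 1.92-fold lower. The difference of -1.36 fell short of the rule without background correction (-0.91), with an offset of 50 (-0.69) and in the authors' processed values (-0.93). Differences below the rule were 0.90 for Crabp2, 0.55 for Dhrs3, -0.76 for Rarb, -0.29 for Aldh1a2, 0.12 for Rarg and 0.00 for Aldh1a1. For Rarb the second probe gave -0.97, and neither probe was detected in the knockout culture.

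The differences of Crabp2 and Rarb had the same direction against the vehicle culture and passed the rule there. Crabp2 was at least 2.27-fold higher and Rarb at least 2.03-fold lower, in a comparison in which 14.7% of measured genes were called. The Rarb value is by the probe used alone, since its second probe was detected in neither culture. Aldh1a1 rose by 2.33 against the vehicle culture and did not differ in level from the control culture. A limma fit that pooled the 2 untreated cultures as 1 group gave Crabp1 a difference of -1.57 (SE 0.50) in the knockout culture with an unadjusted p of 0.0151 and an adjusted p of 1. Over the alternatives its adjusted p lay between 0.404 and 1. After adjustment limma called 0 of 10250 genes here (0.0%) at the 0.05 threshold, against 404 by unadjusted p.

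Markers of other cells differed between these cultures as well. In the knockout culture 4 of 11 cardiomyocyte markers and 1 of 5 erythroid markers were detected, against 8 of 11 and 3 of 5 in the control culture. Their summed linear levels were 4410 and 179 in the knockout culture and 4837 and 915 in the control culture. All 6 smooth muscle markers with a probe summed to 32084 and 42106, and the 9 macrophage markers to 65749 and 41132, in the knockout and the control culture. The part of these cells in the Crabp1, Rarb and Crabp2 differences was not tested.

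PDGFBB was given for 12 h and 24 h to ask how the ligand changes gene expression of the cultures. None of 7 measured members passed the rule at 12 h or at 24 h against the control culture, where 0.558% and 1.23% of measured genes were called. The differences at 12 h and 24 h were -0.94 and -0.39 for Aldh1a1, 0.10 and -0.05 for Aldh1a2, 0.22 and 0.32 for Crabp2, -0.06 and -0.11 for Crabp1, -0.20 and 0.16 for Rarb and -0.02 and -0.21 for Rarg. Both times share the control array. Against the vehicle culture Aldh1a1 rose by 1.39 at 12 h and 1.94 at 24 h, in comparisons in which 6.86% and 5.81% of genes were called, so its direction depended on the untreated culture used. No other member passed the rule against the vehicle culture, where Crabp2 lay just under it at 24 h (0.99, at least 1.52-fold). The 24 h culture minus the 12 h culture gave 0.55 for Aldh1a1, and 0 of 6 measured members passed the rule (0.366% of genes). Limma called 0 of 10250 genes at either time at an adjusted p under 0.05, with 20 and 18 at an unadjusted p under 0.05.

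**Figure D3:**
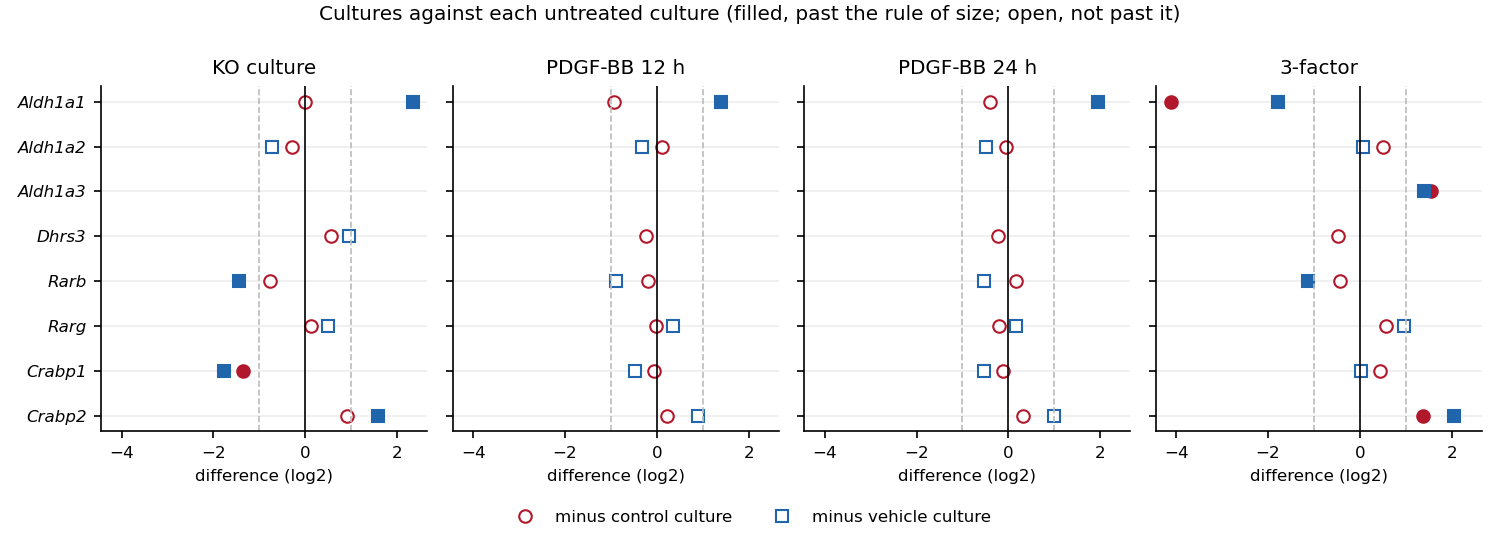
Log2 difference of each detected member between a culture and the control culture (circles) or the vehicle culture (squares), filled where past the rule of size, with dashed lines at -1 and 1. Aldh1a1 shows opposite signs against the 2 untreated cultures with PDGFBB and the same sign in the 3-factor culture (-4.12 and -1.79), while Crabp1 in the knockout culture is below both (-1.36 and -1.78).

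The 3-factor culture was compared with the vehicle culture of its own set to ask how the factors together change epicardial cells. Crabp2 and Aldh1a3 rose and Aldh1a1 and Rarb fell. These were 4 of 7 measured members, where 10.3% of all measured genes were called. Crabp2 had 7.07 in the 3-factor culture, against 5.02 in the vehicle culture, and was at least 3.15-fold higher. Aldh1a3 was at least 1.46-fold higher by its single detected probe, while its other probes were detected nowhere. Aldh1a1 was at least 3.06-fold lower. Rarb was at least 1.63-fold lower by its first probe, while its second was detected in neither culture. Without background correction, with an offset of 50 and in the authors' processed values the Aldh1a3 difference was 0.85, 0.74 and 0.75 and the Rarb difference -0.69, -0.68 and -0.57, all short of the rule, while Crabp2 and Aldh1a1 passed it. Rarb also fell short with arrays normalized within each set (-0.99) and with the mean of its detected probes (-0.73).

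Crabp2, Aldh1a3 and Aldh1a1 passed the rule in the same direction against the control culture, with differences of 1.37, 1.55 and -4.12, and Aldh1a1 was then at least 15.4-fold lower (16.8% of genes called). Rarb differed by -0.44 there and did not pass the rule. Against the PDGFBB 24 h culture, which lies in the other set, Aldh1a1 was at least 11.8-fold lower, Aldh1a3 at least 1.60-fold higher and Crabp2 2.07-fold higher (13.7% of genes called). Below the rule against the vehicle culture were Rarg (0.95, and 0.90 by its second probe), Aldh1a2 (0.07) and Crabp1 (0.03).

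The limma fit on the pooled untreated cultures gave differences of -2.95 (SE 0.86) for Aldh1a1, 1.70 (SE 0.53) for Crabp2 and 1.47 (SE 0.46) for Aldh1a3, with adjusted p of 0.34, 0.384 and 0.402. It called 19 of 10250 genes (0.185%), none of them a member. Over the alternatives the adjusted p ran from 0.005 to 0.463 for Aldh1a1, from 0.141 to 1 for Crabp2 and from 0.0352 to 0.507 for Aldh1a3. The lowest value came with median centring for Aldh1a1 and without a detection filter for Aldh1a3. With median centring the fit took the spread from all genes and not from Aldh1a1 itself (SE 0.75).

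Some markers of the epicardial surface layer shared the order of the Aldh1a1 levels at its low end and others did not. Lrrn4, Gpm6a, Msln, Upk1b, Upk3b and Tcf21 were lowest in the 3-factor culture and next lowest in the vehicle culture, and Bnc1, Tbx18, Krt8, Krt18 and Krt19 were not. Lrrn4, a mesothelial membrane protein gene, had 5.32 in the 3-factor culture and 7.13 in the vehicle culture, beside 8.99 and 8.73 in the knockout and control cultures and 8.15 and 7.96 with PDGFBB for 12 h and 24 h. Gpm6a, another mesothelial marker, had 4.52 in the 3-factor culture and 6.80 in the vehicle culture, and between 7.61 and 8.75 in the other cultures. Over the 11 epicardial and mesothelial markers the summed linear level was 7289 in the 3-factor culture and 20439 in the vehicle culture, and in set 2 40889 in the knockout culture, 31139 in the control culture and 27912 and 26695 with PDGFBB for 12 h and 24 h. The keratin genes Krt8 and Krt18 did not share this order, with 10.30 and 9.30 in the 3-factor culture, against 10.39 and 8.49 in the vehicle culture and 8.88 and 7.14 in the control culture. Krt19 had 5.96 in the 3-factor culture, against 7.43 in the vehicle culture, and was undetected in the control culture at 4.87. Bnc1 had 9.17 in the 3-factor culture, against 11.18 in the vehicle culture and 11.10 in the control culture. The median level of the whole marker list was 9.30 in the 3-factor culture, against 10.39 in the vehicle culture and 8.88 in the control culture, an order unlike that of the sums. The part of the marker differences in the Aldh1a1 result was not tested.

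**Figure D4:**
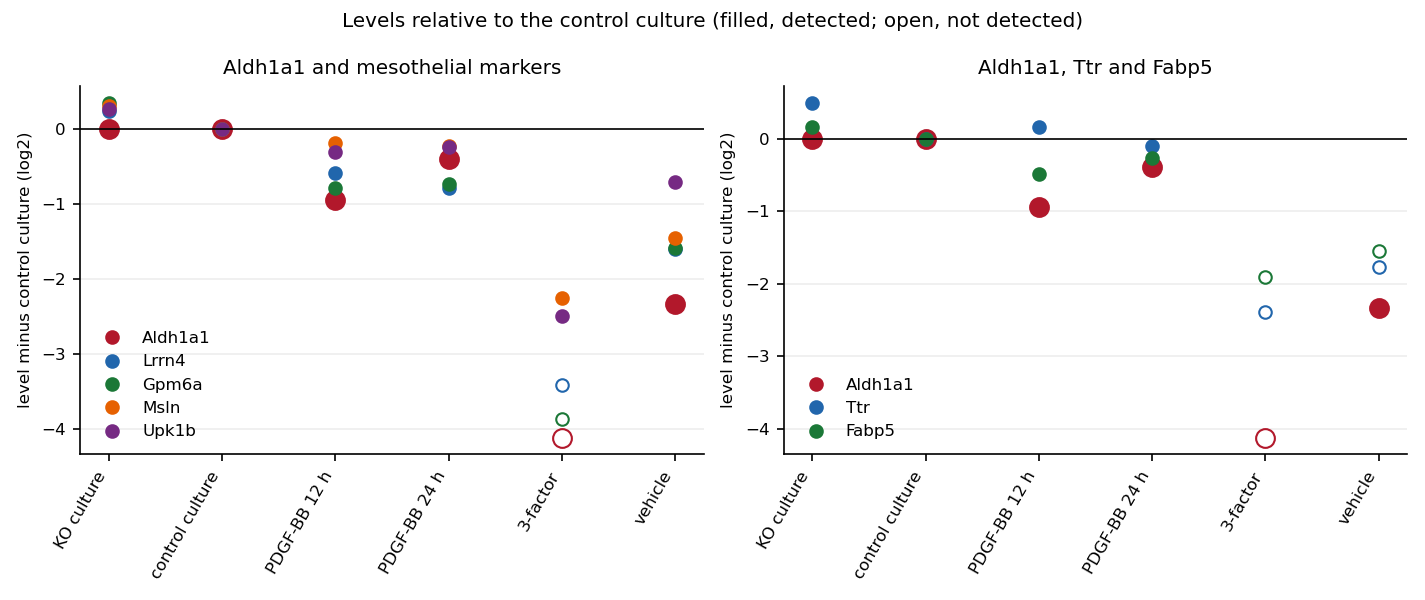
Log2 level minus that of the control culture in each culture, for Aldh1a1 with 4 mesothelial markers (left) and with Ttr and Fabp5 (right), filled where detected. Aldh1a1, Lrrn4, Gpm6a, Msln and Upk1b are all lowest in the 3-factor culture and next lowest in the vehicle culture.

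The 2 untreated wild type cultures differed from each other, which gives the size of difference that can arise with no ligand and no knockout, between sets. Aldh1a1 fell by 2.33 in the vehicle culture against the control culture, the single call among 7 measured members, where 10.6% of genes were called. The other differences were 0.69 for Rarb, -0.68 for Crabp2, 0.43 for Aldh1a2, 0.41 for Crabp1, -0.40 for Dhrs3 and -0.38 for Rarg, and the second Aldh1a2 probe gave 1.07. The knockout difference of Crabp1 exceeded that between the untreated cultures, as did the 3-factor differences of Crabp2 and Aldh1a3, the last at 0.15 between undetected levels. The 3-factor difference of Aldh1a1 was smaller than its 2.33 against the vehicle culture (-1.79) and larger against the control culture (-4.12). That of Rarb was larger than its 0.69 against the vehicle culture (-1.13) and smaller against the control culture (-0.44). Set and culture cannot be told apart in this comparison.

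Cultures differed most from hearts. In the vehicle culture Aldh1a1, Crabp1, Rarg and Aldh1a2 rose and Rarb fell against control hearts, which makes 5 of 5 measured members, where 31.0% of all genes were called. Rarb was 4.42-fold lower (-2.14, and -2.38 by its second probe, not detected in the vehicle culture), Aldh1a2 was 2.13-fold higher (1.09, and 1.56 by its second probe), Aldh1a1 at least 3.27-fold, Crabp1 at least 1.65-fold and Rarg at least 1.16-fold higher. With the control culture in place of the vehicle culture, Aldh1a1 was at least 16.5-fold higher, Crabp1 at least 1.24-fold and Rarg at least 1.51-fold higher and Rarb 7.15-fold lower, while Aldh1a2 differed by 0.66 and did not pass the rule (36.5% of genes called). Under the same 3 settings Aldh1a2 differed by 0.92, 0.92 and 0.87 and Rarg by 0.71, 0.58 and 0.65 in the vehicle culture, short of the rule, and Crabp1 by 0.94 with an offset of 50. With the mean of its detected probes Rarg differed by 0.87, also short of the rule. The order of Rarb levels followed tissue and not genotype in hearts, and its neighbours in that order, knockout and control hearts, differed by 0.04. Cardiomyocyte markers summed to 4969 in the vehicle culture and 138422 in control hearts, and endothelial markers to 1084 and 16894. Which heart cells hold the Rarb transcripts was not tested.

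Other genes of vitamin A handling were counted in the same way. In the knockout culture 2 of 29 measured genes of the 3 lists passed the rule, beside 4.17% of all measured genes, with a median difference of -0.01 beside 0.01. Igf2, a growth factor gene whose epicardial expression is linked to retinoic acid, fell by 1.16, and Hoxb4, a homeobox gene with retinoid response elements, rose by 1.06. Both held against the vehicle culture. Rdh10, the main retinol dehydrogenase of the embryo, was detected in the knockout culture alone, at 5.42, with 4.54 in the control culture. With PDGFBB 0 of 28 measured genes passed at 12 h and 0 of 29 at 24 h, beside 0.558% and 1.23% of all genes.

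In the 3-factor culture 2 of 25 passed the rule, beside 10.3% of all measured genes, and both fell: Rarres2, which encodes the chemoattractant chemerin and responds to retinoids, was at least 4.12-fold lower than in the vehicle culture, and the cardiac factor Gata4 at least 1.97-fold lower. Rarres2 had a level of 5.55 in the 3-factor culture, against 7.61 in the vehicle culture and 7.25 in the control culture. Gata4 had 5.45 in the 3-factor culture, against 6.54 in the vehicle culture and 5.61 in the control culture, so its call rests on the vehicle culture.

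Between the untreated cultures 3 of 29 measured genes passed the rule, a share near the 10.6% of all genes. Ttr, which encodes the carrier of retinol-binding protein in blood, and Fabp5, which encodes a fatty acid carrier that also binds retinoic acid, fell in the vehicle culture (Ttr at least 2.58-fold, Fabp5 at least 2.07-fold). The coactivator gene Ncoa3 rose, by at least 1.20-fold. It was detected in the vehicle culture alone, at 5.44, close to the lowest detected level of that array (5.41). Ttr had 7.28 in the knockout culture and 6.78 in the control culture, 6.94 and 6.69 with PDGFBB for 12 h and 24 h, 4.39 in the 3-factor culture and 5.01 in the vehicle culture, the last 2 without detection. Among the cultures, Aldh1a1, Ttr and Fabp5 were thus higher in those of set 2 than in those of set 1. In hearts Fabp5 was detected, at 6.46 in knockout and 5.91 in control hearts, while Ttr was not.

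Against control hearts 12 of 27 measured genes passed the rule in the vehicle culture, 5 higher and 7 lower, beside 31.0% of all genes. Cyp1b1, a cytochrome P450 gene whose enzyme can oxidize retinol, was at least 41.8-fold higher. The alcohol dehydrogenase gene Adh1 was at least 1.63-fold lower and the retinol carrier gene Rbp7 at least 1.96-fold lower, Tgm2, a transglutaminase gene induced by retinoids, fell by 2.07, and Cxcl12, a chemokine gene, rose by 2.77. Tbx5, a cardiac T-box factor gene, was at least 2.09-fold lower, and Rarres2, Dgat1 and Rdh14 fell by 1.25, 1.22 and 1.02. Akr1b8 rose by 1.32, the nuclear receptor gene Ppard by 1.13 and Dhrs9 by at least 1.16-fold. The degrading enzyme genes Cyp26a1 and Cyp26b1 and the vitamin A storage gene Lrat were detected on no array.

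Of 31 genes with a DR5 in their promoter, 9 had a named probe. In the 3-factor culture 4 of the 7 measured ones fell against the vehicle culture and 1 rose, where 10.3% of all genes were called. Those that fell were Rarb, Prokr2 (-1.26), Prss27 (-2.20) and the embryonic globin gene Hbb-y (-7.84), and the cytokine gene Tnfsf13b rose (2.97). In the knockout culture 2 of 7 fell, Prokr2 (-1.15) and Hbb-y (-3.26), where 4.17% of all genes were called. Erythroid markers differed between these cultures too, with 0 of 5 detected in the 3-factor culture and 3 of 5 in the vehicle culture. Of the DR5 genes, 0 of 5 passed the rule in knockout hearts (0.662% of all genes) and 0 of 7 with PDGFBB at 12 h (0.558%). At 24 h Hbb-y alone rose, by 1.91 (1.23%). Between the untreated cultures Hbb-y alone rose, by 4.11 in the vehicle culture (10.6%), more than it fell in the knockout culture. Against control hearts 2 of 7 rose and 3 fell in the vehicle culture (31.0%).

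Aldh1a2 was the single member detected on all arrays with a range of at least 1. The 5 genes most like it among 3969 such genes were Rxylt1, Tns1, Ikbip, Actn1 and Rpl7a, each with a Pearson correlation of 0.98 over the 8 arrays, which is set largely by the contrast of 2 heart with 6 culture arrays. Over the 6 cultures alone, among 2522 genes and by a rule added after the levels were seen, Aldh1a1 was most like S100a4 (0.997) and Mmp17 (0.996). Crabp1 was most like the cadherin gene Fat1 (0.997) and Crispld2 (0.995). Crabp2 was most like the haematopoietic gene Hcls1 (0.999) and Capg (0.988), followed by Pfkl (0.987), Myo1e (0.981) and the phagocyte receptor gene Clec7a (0.979). These values describe 6 arrays that fall into 2 sets. For Crabp1 the knockout culture (4.42, not detected) lay apart from the other cultures (5.67 to 6.23), so its likeness rests largely on that array. Macrophage markers, beside the Crabp2 levels, summed to 36138 in the 3-factor culture, against 14432 in the vehicle culture and 41132 in the control culture, and their part in the Crabp2 result was not tested.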

How the data were processed

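For each probe and array the authors deposited an unnormalized intensity with its detection p-value, exported with BeadStudio 3.3 per the submitters' processing notes. Their deposited processed values are a linear intensity with the same minimum and maximum within each of 2 sets of 4 arrays. They served as an alternative, with no normalization named by the labels. The lowest deposited intensity was above 0 on every array. Intensities were background-corrected and quantile-normalized over all 8 arrays with limma 3.58.1 (neqc, offset 16) in R 4.3.3, and put on the log2 scale; summaries used Python 3.11.15 with pandas 2.3.3. By the platform annotation 34885 probes had 1 symbol, 18 had several and 10378 had none. A gene took the probe with the highest mean level. If the lower array lacked detection, the fold is a bound from the lowest level of a detected probe there, or the gene's own level if higher. With 1 array per group, comparisons of 2 arrays have no test; limma (lmFit, eBayes with trend) was fitted on 6 cultures pooling the 2 untreated cultures (1 residual degree of freedom), with Benjamini-Hochberg adjustment over 10250 genes. Its p-values rest on the spread between those 2 cultures, moderated over all genes. With median centring that spread was taken over all genes alone and not gene by gene. Members, gene lists and comparisons were chosen with earlier results of these data known. The number of arrays limits the precision. The limma fit and the difference of 2 arrays were tried on simulated data with independent noise and no difference between sets. That setting is unlike these arrays, so the trial cannot show how differences between sets affect the results. Genes named were all members, list genes past the rule of size in the comparison described (up to 6 per list and direction, by size), and the 5 genes with the highest correlation to a member detected on all arrays. Rdh10, Cyp26a1, Cyp26b1, Lrat, the single marker genes shown, the DR5 genes and the likeness over cultures were chosen after their values were seen.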

Additional observations from a re-analysis of the deposited data

How the results depend on the processing

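Of 355 values of members under an alternative setting, 328 kept their direction where called and their side of the rule of size, 21 dropped below it and 6 passed it. The 328 include values that could not move. A detection p under 0.05 and no detection filter leave the levels, and so the differences, unchanged. The mean of detected probes leaves genes with a single detected probe unchanged. Without background correction, with an offset of 50 and with the authors' processed values, 0, 0 and 0 members passed the rule in the knockout culture in place of 1. In the same order 2, 2 and 2 passed in the 3-factor culture in place of 4, and 3, 2 and 3 passed in the vehicle culture against control hearts in place of 5. Crabp1 in the knockout culture then differed by -0.91, -0.69 and -0.93. Against the vehicle culture instead, 4 members passed in the knockout culture and 1 with PDGFBB at 12 h and at 24 h; with median centring Aldh1a1 passed at 12 h (1 member, -1.23). Calls of limma moved from 0 to 25 (median centring) and 1 (no detection filter) in the knockout culture, from 0 to 3 and 1 with PDGFBB at 12 h, and from 19 to 102 and 46 in the 3-factor culture, with 62 there when both PDGFBB cultures formed a group of 2 and 31 without background correction. With median centring the fit took the spread from all genes and not gene by gene. The cause of these moves was not tested. Over all genes, calls without background correction, with an offset of 50 and in the authors' values were 16, 16 and 13 in knockout hearts in place of 59. They were 219, 215 and 244 in the knockout culture in place of 407. With PDGFBB they were 18, 17 and 21 at 12 h in place of 54, and at 24 h 50, 49 and 57 in place of 119. They were 616, 601 and 557 in the 3-factor culture in place of 950. Between untreated cultures there were 536 and 516 without background correction and with an offset of 50, in place of 1031, and 1995 with median centring. Median centring gave 136 at 12 h and 330 at 24 h. It set the median difference of all measured genes to -0.11 in the knockout culture, -0.26 and -0.31 with PDGFBB at 12 h and 24 h, and -0.49 between the vehicle and control cultures, so part of each difference under it is this shift. Fits that leave out 1 untreated culture were not run. No paired analysis was possible because each group has 1 array.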
